A study of Homo sapiens with 12 samples.

Results

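The glucocorticoid receptor and its classic target genes were followed in MM.1S cells, a glucocorticoid-sensitive human multiple myeloma cell line, treated with dexamethasone-containing and dexamethasone-free regimens. The set holds 10 genes, chosen by name for their place in textbook glucocorticoid signalling, with earlier results of these data known. They were located by their Ensembl identifiers among the 17710 gene rows of the array table. They are NR3C1 (ENSG00000113580_at), TSC22D3 (ENSG00000157514_at), FKBP5 (ENSG00000096060_at), PER1 (ENSG00000179094_at), DUSP1 (ENSG00000120129_at), SGK1 (ENSG00000118515_at), KLF9 (ENSG00000119138_at), ZBTB16 (ENSG00000109906_at), TXNIP (ENSG00000265972_at) and GLUL (ENSG00000135821_at). All 10 were present in the table.

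RNA came from 3 independent experiments, with 3 arrays in each of 4 groups, 12 arrays in all. Arrays with the same replicate number are taken here as 1 experiment. Control cells were untreated, and the sources used here give no collection time for them. PIM cells received 100 nM PIM447, an inhibitor of all PIM kinases, and were collected at 24 h. Pd cells received 200 nM pomalidomide and 5 nM dexamethasone and were collected at 15 h, and PIM-Pd cells received all 3 agents at these doses and were collected at 10 h. Viability of the treated cells was 74 to 81%. Pomalidomide and dexamethasone were not given separately, so the part of each cannot be told apart, and each regimen had its own duration, so agent and time cannot be told apart either. Values are log2 expression values on the RMA scale, on which a difference of 1 is a doubling of the linear signal, and they are compared between arrays for the same gene and not between genes.

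Dexamethasone is a synthetic glucocorticoid. It binds the glucocorticoid receptor, the product of NR3C1, which waits in the cytosol in a complex with HSP90 and its co-chaperones, moves to the nucleus on binding and acts on DNA at glucocorticoid response elements. Glucocorticoids kill many lymphoid and plasma cells, and dexamethasone is a backbone of myeloma therapy. Pomalidomide redirects the cereblon ubiquitin ligase to the transcription factors Ikaros and Aiolos.

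Array medians lay between 4.81 and 4.89, and the mean correlation of an array with the other 11 ran from 0.982 for PIM-Pd array 1 to 0.988. Of the plasma cell markers listed for checking the line, 3 of 9 could be named in the table, and 1 of 4 T cell markers. Names came only through the study's own list of genes changed on these arrays, so the markers seen were selected for shifting. B cell, monocyte, stromal and erythroid markers could not be named. The values are a description and not a check of the line's identity. CD38 ranged from 8.16 to 9.03, SLAMF7 from 9.37 to 10.13 and IRF4 from 8.89 to 10.24 over the 12 arrays, while the T cell marker CD3E ranged from 3.82 to 4.88. The table gives no detection calls. IRF4, a plasma cell transcription factor, fell by 1.10 in Pd cells (adjusted p = 0.000192, limma) and by 1.12 in PIM-Pd cells (adjusted p = 0.000118), and CD38 rose by 0.42 in PIM-Pd cells (adjusted p = 0.0463). SLAMF7 differed by -0.50 and -0.19 and CD3E by -0.47 and -0.57 in Pd and PIM-Pd cells, without passing. With the experiment as a replicate block, SLAMF7 in Pd cells (adjusted p = 0.026, from 0.0839) and CD3E in PIM-Pd cells (adjusted p = 0.0482, from 0.0573) passed. The part of these shifts in the members' results was not tested.

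TSC22D3, FKBP5 and TXNIP rose in Pd cells, these 3 and KLF9 rose in PIM-Pd cells, and no member fell in any comparison at an adjusted p-value under 0.05 (limma, Benjamini-Hochberg over all 17710 rows, used for every call). NR3C1 itself passed in no comparison. PER1, DUSP1, SGK1, ZBTB16 and GLUL passed the threshold in none of the 6 comparisons. Across all rows, 3.48% were called higher and 1.94% lower in Pd against control, against 3 higher and 0 lower among the 10 members. In PIM-Pd against control the shares were 4.42% higher and 5.02% lower, against 4 higher and 0 lower among the members. The members were chosen with earlier results of these data known, so the shares are set side by side only as a description. In these bulk samples, fewer cells that express a gene and less RNA per cell cannot be told apart.

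**Figure D1:**
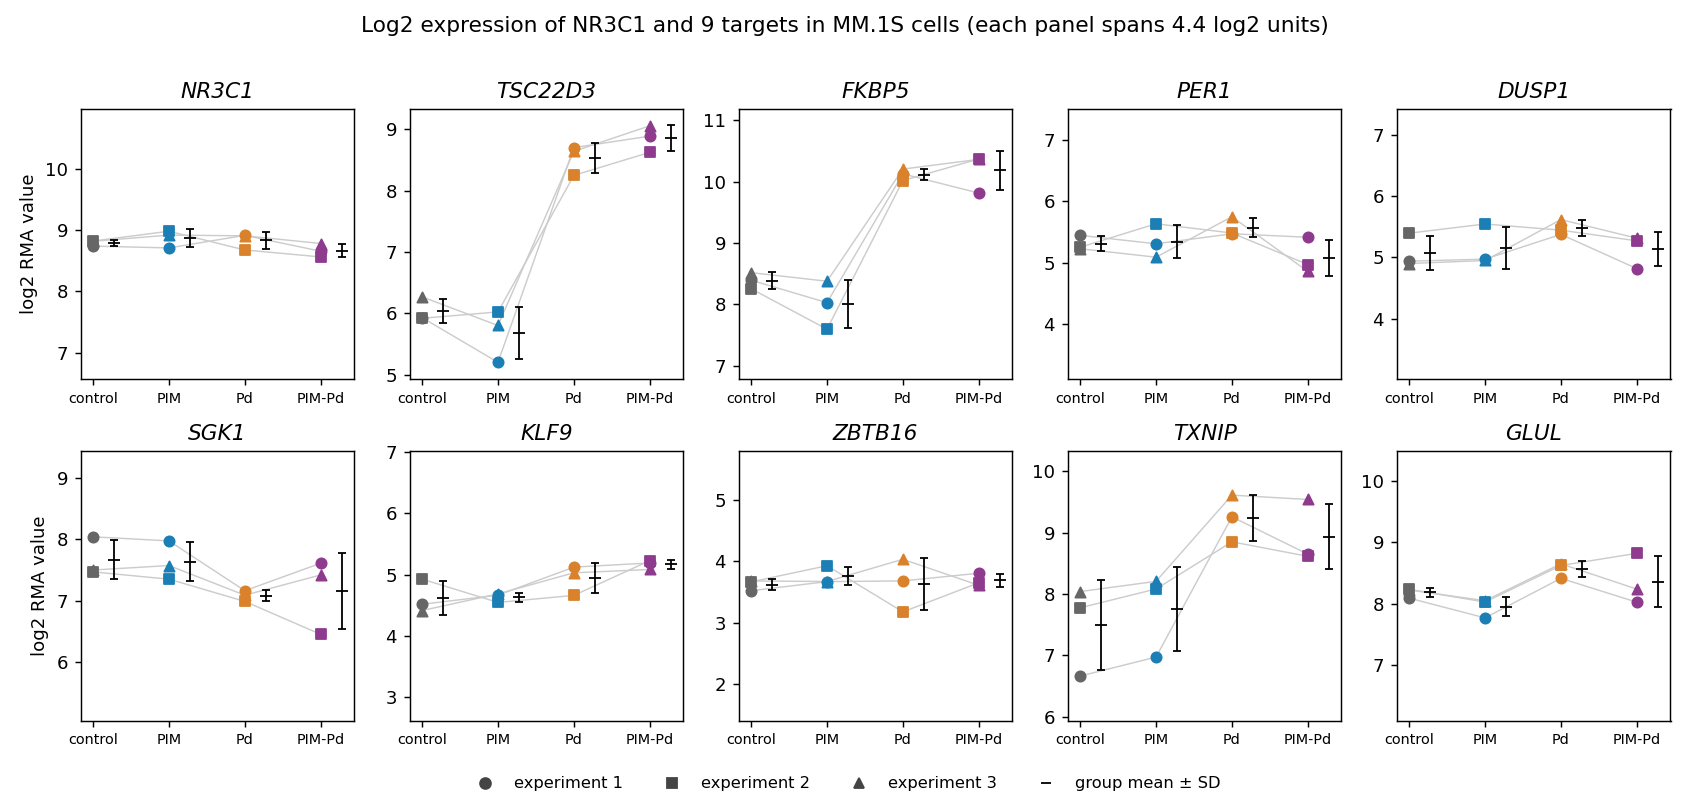
Log2 RMA values of NR3C1 and its 9 targets on all 12 arrays, by group. Symbols mark the experiment, grey lines join arrays of the same experiment, and black bars give the group mean and SD (n = 3). TSC22D3, FKBP5 and TXNIP lie higher in all 6 Pd and PIM-Pd arrays than in all 6 control and PIM arrays, while NR3C1 stays between 8.56 and 8.98.

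NR3C1, which encodes the receptor, read 8.74, 8.82 and 8.82 in control cells, 8.71, 8.98 and 8.92 in PIM cells, 8.91, 8.67 and 8.90 in Pd cells, and 8.65, 8.56 and 8.78 in PIM-Pd cells (experiments 1, 2 and 3). The groups overlapped in every pairwise comparison. Its difference from control was 0.08 in PIM cells (95% interval -0.17 to 0.32), 0.04 in Pd cells (-0.20 to 0.28) and -0.13 in PIM-Pd cells (-0.37 to 0.12), with adjusted p-values of 0.948, 0.931 and 0.643. The span of 0.419 between its lowest and highest array was wider than that of only 17.0% of all rows. In PIM-Pd cells the receptor transcript was below the control of the same experiment in 3 of 3 experiments, by 0.08, 0.26 and 0.04.

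TSC22D3 encodes GILZ, the glucocorticoid-induced leucine zipper protein that binds and restrains inflammatory transcription factors. Control arrays read 5.93, 5.92 and 6.27 and PIM arrays 5.20, 6.02 and 5.80. Pd arrays read 8.70, 8.25 and 8.64 and PIM-Pd arrays 8.89, 8.63 and 9.06. The groups that held pomalidomide and dexamethasone stood entirely above the control and PIM groups.

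The rise of TSC22D3 was 2.49 ± 0.20 (SE) in Pd cells, or 5.62-fold (95% interval 4.21 to 7.51, adjusted p = 7.55e-06, limma), and 2.82 ± 0.20 in PIM-Pd cells, or 7.05-fold (5.28 to 9.41, adjusted p = 1.42e-06, limma). It stood at rank 4 of 17710 rows by difference in Pd cells and at rank 3 in PIM-Pd cells. Within experiments the Pd difference was 2.77, 2.33 and 2.37, and the PIM-Pd difference was 2.96, 2.70 and 2.79. Both calls held under all 18 alternatives, with differences of 2.41 to 2.63 in Pd cells and 2.72 to 2.93 in PIM-Pd cells.

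FKBP5 encodes FKBP51, an HSP90 co-chaperone that lowers the receptor's affinity for hormone and so closes a negative feedback loop. Its values were 8.39, 8.25 and 8.51 in control cells, 8.03, 7.59 and 8.37 in PIM cells, 10.12, 10.02 and 10.20 in Pd cells, and 9.81, 10.37 and 10.36 in PIM-Pd cells. Again every Pd and PIM-Pd array was above every control and PIM array. The rise was 1.73 ± 0.18 (SE) in Pd cells, or 3.31-fold (95% interval 2.52 to 4.35, adjusted p = 7.59e-05, limma). In PIM-Pd cells it was 1.79 ± 0.18, or 3.47-fold (2.64 to 4.56, adjusted p = 3.7e-05, limma). The 3 experiments agreed closely in Pd cells, at 1.73, 1.76 and 1.69, and spread more in PIM-Pd cells, at 1.42, 2.12 and 1.85. FKBP5 ranked 21 among all rows in Pd cells and 18 in PIM-Pd cells, and both calls held under all 18 alternatives.

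TXNIP encodes thioredoxin-interacting protein, an arrestin-like protein that inhibits thioredoxin and limits glucose uptake. It varied most between experiments. Control arrays read 6.66, 7.78 and 8.04, PIM arrays 6.97, 8.08 and 8.21, Pd arrays 9.26, 8.85 and 9.61, and PIM-Pd arrays 8.65, 8.61 and 9.54. Experiment 1 was the lowest of the 3 in both the control and PIM groups, by over 1 log2 unit. Yet all Pd and PIM-Pd arrays lay above all others.

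The rise of TXNIP was 1.75 ± 0.37 (SE) in Pd cells, or 3.36-fold (95% interval 1.94 to 5.81, adjusted p = 0.0116, limma). In PIM-Pd cells it rose 2.72-fold (1.57 to 4.71, adjusted p = 0.023, limma). The within-experiment differences were 2.60, 1.07 and 1.57 in Pd cells, and in PIM-Pd cells they ran from 0.84 in experiment 2 to 1.99 in experiment 1. Leaving out control array 1, the lowest, gave 1.33 in Pd cells (adjusted p = 0.0594) and 1.03 in PIM-Pd cells (adjusted p = 0.11). The Pd call was also lost without Pd array 3 (adjusted p = 0.0683) and the PIM-Pd call without PIM-Pd array 3 (adjusted p = 0.107). With the experiment as a replicate block, adjusted p-values were 0.000814 and 0.00206.

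KLF9 encodes a zinc finger repressor whose gene is a direct glucocorticoid receptor target in many tissues. It read 4.52, 4.93 and 4.42 in control cells, 4.67, 4.55 and 4.69 in PIM cells, 5.12, 4.66 and 5.03 in Pd cells, and 5.19, 5.23 and 5.09 in PIM-Pd cells. PIM-Pd arrays stood above all control and PIM arrays, whereas Pd arrays overlapped both. The difference from control was 0.55 ± 0.15 (SE) in PIM-Pd cells, or 1.46-fold (95% interval 1.18 to 1.82, adjusted p = 0.0278, limma), and 0.32 ± 0.15 in Pd cells (adjusted p = 0.284, limma). In Pd cells experiment 2 went the other way, at -0.26, beside 0.61 and 0.62 in experiments 1 and 3. The PIM-Pd call was lost without control array 1 (adjusted p = 0.107), control array 3 (0.134), or PIM-Pd array 1 (0.0746), 2 (0.0806) or 3 (0.0501).

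**Figure D2:**
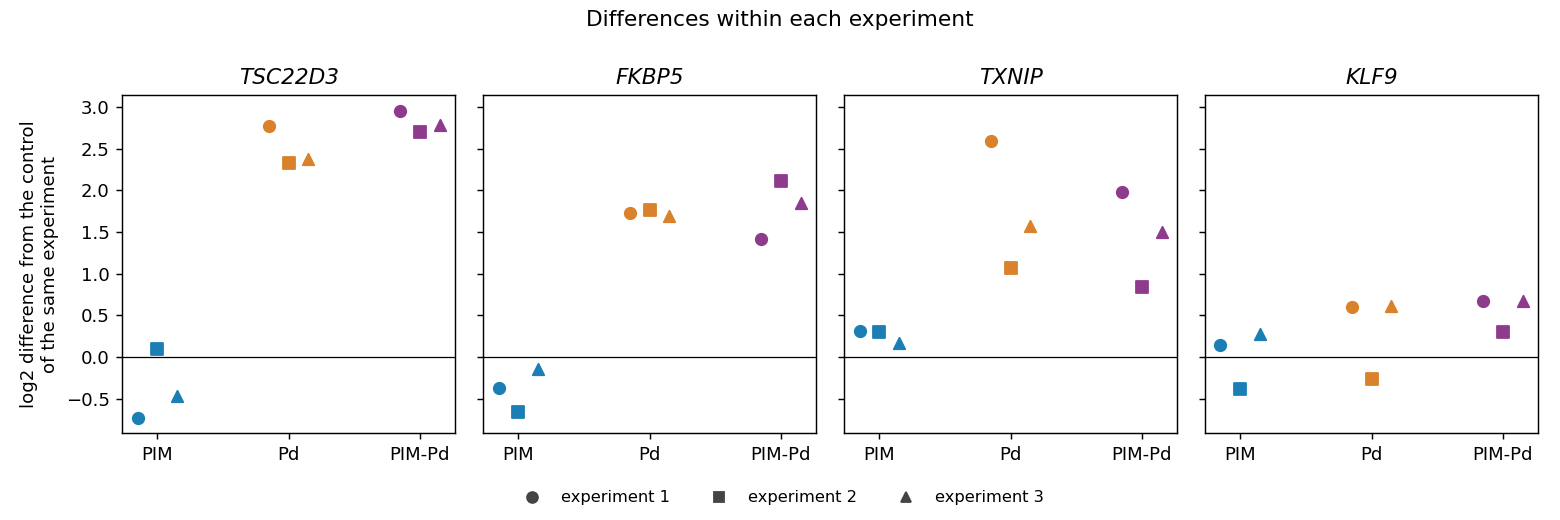
Log2 difference of the PIM, Pd and PIM-Pd arrays from the control array of the same experiment, for TSC22D3, FKBP5, TXNIP and KLF9. Each symbol is 1 experiment. All Pd and PIM-Pd points lie above 0 except KLF9 in Pd cells of experiment 2, and TXNIP shows the widest scatter, from 1.07 to 2.60 in Pd cells.

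The other targets split into those with small positive differences in Pd cells and those without. GLUL encodes glutamine synthetase, a long-known glucocorticoid-induced enzyme. It read 8.09, 8.24 and 8.22 in control cells and 8.41, 8.62 and 8.65 in Pd cells, so these groups did not overlap. The difference of 0.38 ± 0.17 (SE) was close to the same in the 3 experiments (0.32, 0.39 and 0.43) but did not pass (adjusted p = 0.259, limma). In PIM-Pd cells GLUL read 8.02, 8.82 and 8.24, overlapping control (difference 0.18, adjusted p = 0.659), and in PIM cells it read 7.77, 8.03 and 8.05, all below control (difference -0.23, adjusted p = 0.871).

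DUSP1 encodes a dual-specificity phosphatase that switches off MAP kinases and is an early glucocorticoid target. Values were 4.94, 5.39 and 4.90 in control cells, 4.97, 5.54 and 4.95 in PIM cells, 5.37, 5.44 and 5.62 in Pd cells, and 4.82, 5.27 and 5.31 in PIM-Pd cells. The Pd group overlapped control through control array 2. Its difference was 0.40 (95% interval 0.01 to 0.79, adjusted p = 0.283, limma) in Pd cells and 0.06 (-0.34 to 0.45, adjusted p = 0.928) in PIM-Pd cells.

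PER1, a period gene of the circadian clock with a known glucocorticoid response, read 5.45, 5.25 and 5.23 in control cells, 5.31, 5.64 and 5.09 in PIM cells, 5.47, 5.48 and 5.75 in Pd cells, and 5.42, 4.97 and 4.86 in PIM-Pd cells. Pd arrays stood just above control and above all PIM-Pd arrays. The difference was 0.26 (95% interval -0.09 to 0.61) in Pd cells and -0.23 (-0.58 to 0.12) in PIM-Pd cells, with adjusted p-values of 0.491 and 0.519.

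SGK1 encodes a serum- and glucocorticoid-induced kinase and was the only member with a negative difference in Pd cells. Control arrays read 8.04, 7.47 and 7.50 and Pd arrays 7.16, 6.99 and 7.09, with no overlap. PIM arrays read 7.97, 7.35 and 7.57, and PIM-Pd arrays scattered widely at 7.61, 6.45 and 7.42. The Pd difference of -0.59 (95% interval -1.13 to -0.05) did not pass (adjusted p = 0.232, limma). It passed in a fit on only the 6 control and Pd arrays (adjusted p = 0.0359) and stood at 0.06 with the replicate block. In PIM-Pd cells the difference was -0.51 (-1.04 to 0.03, adjusted p = 0.276, limma), lower in 3 of 3 experiments.

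ZBTB16 encodes PLZF, a zinc finger repressor that glucocorticoids induce strongly in many other cell types. Its 12 values ran from 3.18 to 4.03, around the lower quartile of the arrays, which lay between 3.61 and 3.66. The 4 group means were 3.62, 3.76, 3.63 and 3.69 in control, PIM, Pd and PIM-Pd cells, and both extremes belonged to Pd arrays. The Pd difference was 0.01 (95% interval -0.36 to 0.37, adjusted p = 0.993, limma).

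**Figure D3:**
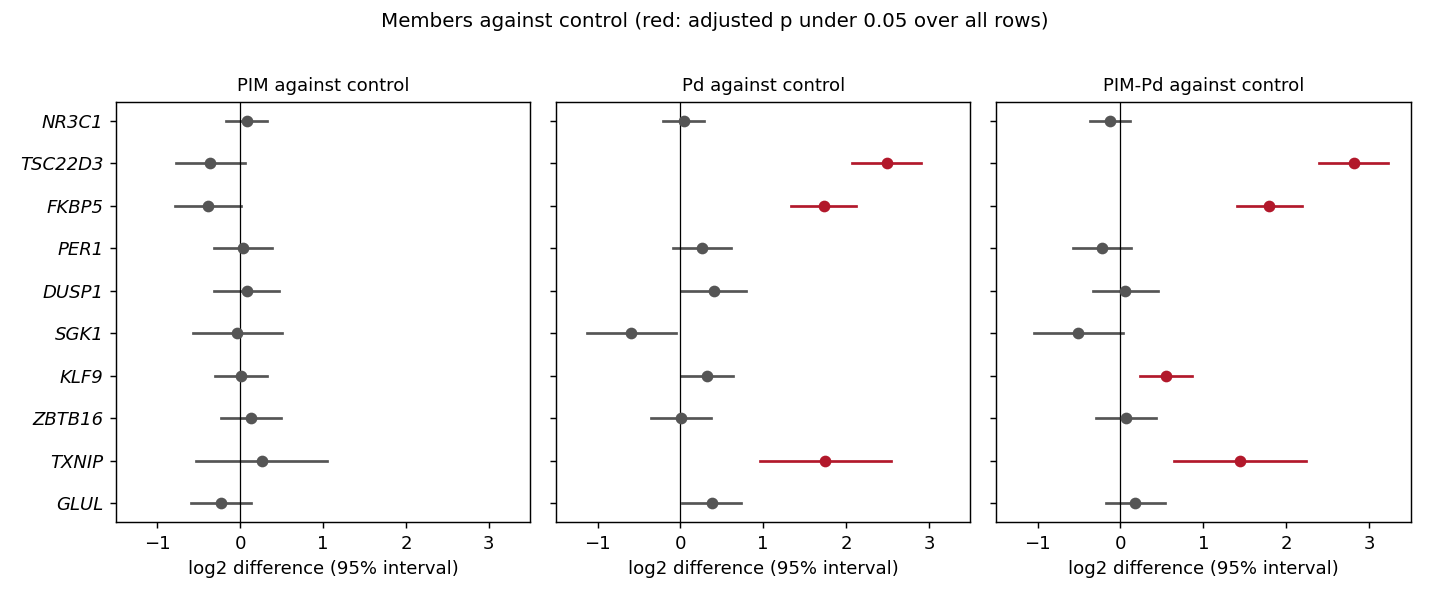
Log2 difference from control with its 95% interval for each member in PIM, Pd and PIM-Pd cells (n = 3 arrays a group, limma). Red marks members at an adjusted p-value under 0.05 over all rows: none in PIM cells, TSC22D3, FKBP5 and TXNIP in Pd cells, and these with KLF9 in PIM-Pd cells.

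The median difference of the 9 targets was 0.38 in Pd cells and 0.18 in PIM-Pd cells, beside -0.01 and 0.01 over all rows. The comparisons share the control arrays. Of the 9 targets, 8 had a positive difference in Pd cells, where 3 were called, and 7 in PIM-Pd cells, where 4 were called. The positive ones include ZBTB16 at 0.01 in Pd cells, and DUSP1 at 0.06 and ZBTB16 at 0.07 in PIM-Pd cells. SGK1 was negative in both, and PER1 in PIM-Pd cells. The share of all rows with a positive difference was not counted, so the counts are a description only.

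**Figure D4:**
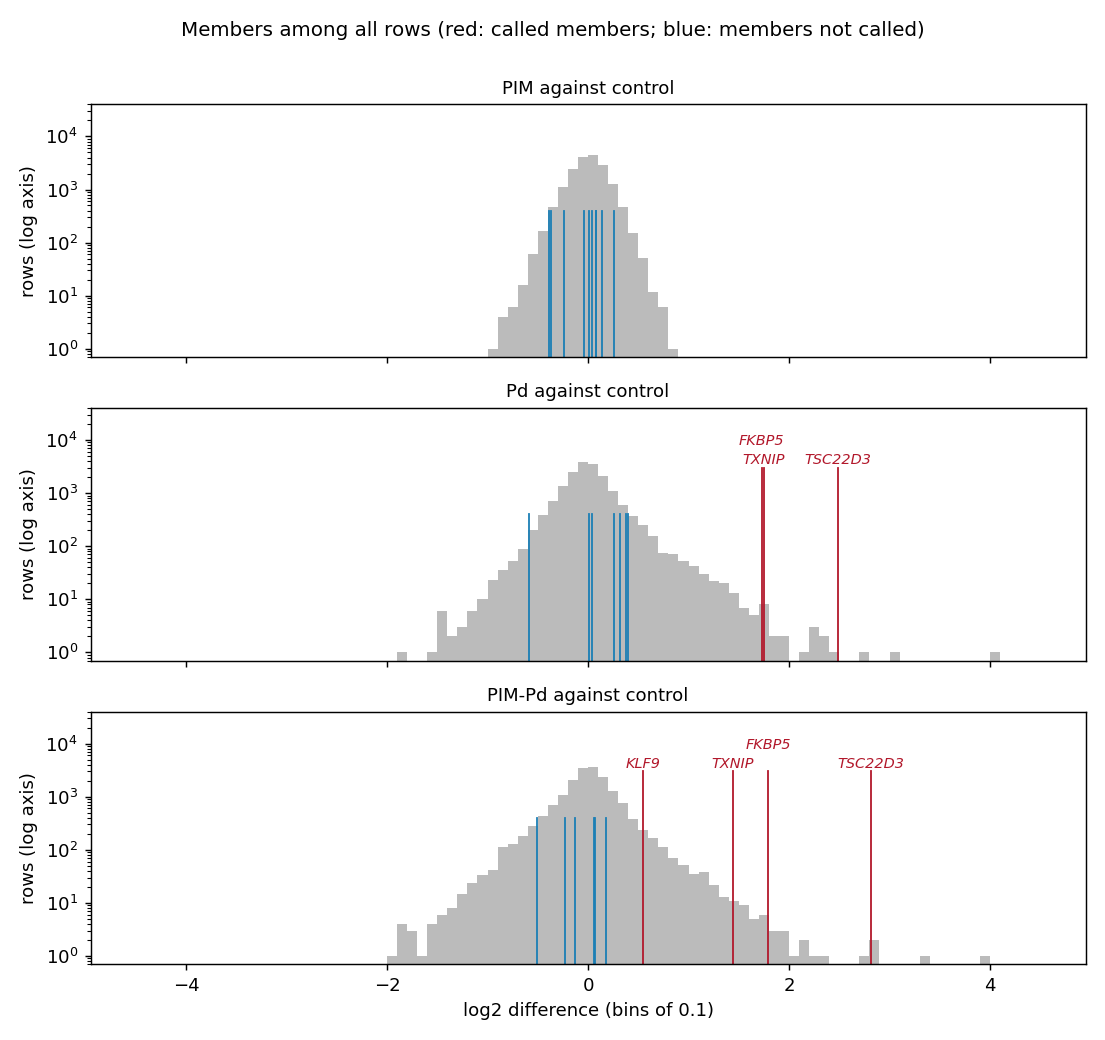
Counts of all 17710 rows by log2 difference from control (log axis, bins of 0.1), with each member drawn as a vertical line, red where it was called. TSC22D3, FKBP5 and TXNIP lie in the far right tail in Pd and PIM-Pd cells, and no member was called in PIM cells, where FKBP5 and TSC22D3 lie toward the left tail at -0.39 and -0.36.

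PIM447 alone moved none of the genes past the threshold. No row of the table was called in PIM against control (0%), although 1098 rows had an unadjusted p-value under 0.05 by limma, and none of the 10 members was among those. With the replicate block the count of calls was also 0. FKBP5 differed by -0.39 (95% interval -0.78 to 0.00466, adjusted p = 0.795, limma) and was below control in 3 of 3 experiments. TSC22D3 differed by -0.36 (-0.78 to 0.05, adjusted p = 0.809), below control in experiments 1 and 3. By difference they stood at ranks 17412 and 17314 of 17710 rows, near the lowest. TXNIP differed by 0.26 (-0.53 to 1.05, adjusted p = 0.946).

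The question of what PIM447 added to pomalidomide and dexamethasone was addressed by PIM-Pd against Pd, at 10 h and 15 h respectively. Only 0.0791% of all rows were called and none of the members was. TSC22D3 was higher in PIM-Pd cells in 3 of 3 experiments, by 0.19, 0.38 and 0.42, a mean of 0.33 (95% interval -0.09 to 0.74, adjusted p = 0.675, limma). FKBP5 differed by 0.07 (-0.33 to 0.46, adjusted p = 0.952) and TXNIP by -0.30 (-1.10 to 0.49, adjusted p = 0.875).

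PER1 had the largest difference of the members in this comparison, at -0.49 (95% interval -0.84 to -0.14). It was lower in 3 of 3 experiments (-0.06, -0.51 and -0.89), without overlap between the groups, and did not pass over all rows (adjusted p = 0.403, limma). DUSP1 was likewise lower in 3 of 3 experiments and without overlap, by 0.34 on average (-0.74 to 0.05, adjusted p = 0.628). NR3C1 and TXNIP were also lower in 3 of 3 experiments, and TSC22D3 and KLF9 higher in 3 of 3, all with overlap. The share of all rows that do the same was not counted, so these signs and separations are only a description.

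The interaction asks whether the effect of both agents together differed from the sum of the effects of PIM447 and of Pd on the log2 scale. It was called for 0.0169% of rows and for no member. The estimate was 0.69 for TSC22D3 (95% interval 0.10 to 1.28, adjusted p = 0.822, limma) and positive in 3 of 3 experiments. For PER1 it was -0.52 (-1.02 to -0.03, adjusted p = 0.842), and for FKBP5 0.45 (-0.10 to 1.01, adjusted p = 0.916). The 3 regimens lasted 24, 15 and 10 h, so departures from additivity and duration cannot be told apart.

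**Figure D5:**
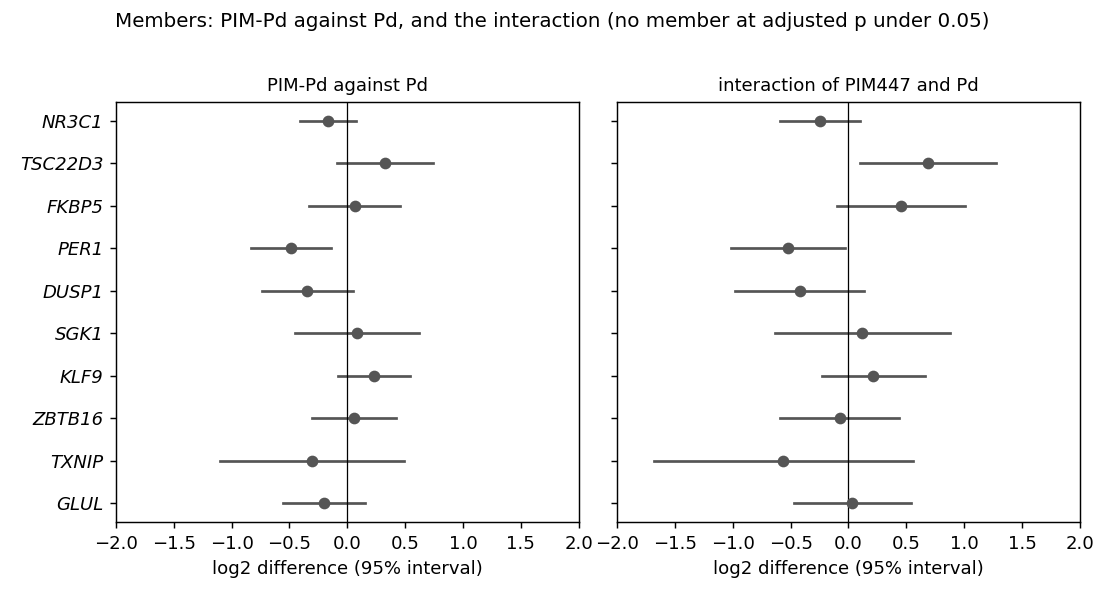
Log2 difference of PIM-Pd against Pd and the interaction of PIM447 and Pd, with 95% intervals, for each member (limma, 12 arrays). No member passed an adjusted p-value under 0.05. PER1 lies lowest in PIM-Pd against Pd, at -0.49, and TSC22D3 highest in the interaction, at 0.69.

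Against PIM cells, PIM-Pd cells had 2.95% of all rows called higher and 2.71% lower, and 3 members called higher with 0 lower. TSC22D3 was higher by 3.18 ± 0.20 (SE), or 9.07-fold (95% interval 6.79 to 12.1, adjusted p = 6.62e-07, limma). FKBP5 was higher by 2.18 ± 0.18, or 4.54-fold (3.46 to 5.96, adjusted p = 9.99e-06). KLF9 was higher by 0.53 (adjusted p = 0.0455), a call that ended in 11 of 18 alternatives, among them the replicate block (0.0531) and the fits without PIM array 1, 2 or 3 (0.0939, 0.128 and 0.0732), PIM-Pd array 1, 2 or 3 (0.0995, 0.12 and 0.0798), control array 1 (0.0554) or Pd array 3 (0.0613). TXNIP differed by 1.18 (0.39 to 1.97) with all PIM-Pd arrays above all PIM arrays. It missed the threshold (adjusted p = 0.0812) and passed with the replicate block (adjusted p = 0.0101) and without control array 1 (adjusted p = 0.0428).

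RefSeq promoter windows (GRCh38.p14), from 250 bases before to 50 bases after an annotated start, were searched for the letters of the glucocorticoid response element. They cover 23 windows of 9 members. ZBTB16 has no entry. The full palindrome, AGAACA and TGTTCT around 3 bases of any kind, was in none of the 23 windows and in 1 of 35116 windows overall (0.00285%). A relaxed form, GNACA and TGTNC around 3 bases of any kind, also matches every full palindrome and was in 1 of the 23 windows, of TXNIP, and in 0.39% of all windows. The single hexamer, AGAACA or TGTTCT, was in 2 of the 23 windows, of FKBP5 and SGK1, and in 14.8% of all. Both strands were searched, and a full match also holds the hexamer. A match is only a run of letters, and distal elements lie outside these windows.

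The windows with a match are shown with that of the outermost start of TSC22D3, the member with the largest rise. All 4 genes lie on the minus strand and are written 5′ to 3′ in the direction of transcription, with capitals for the matched letters. The windows are chrX:107775939-107776238 for TSC22D3 (no match), chr6:35728534-35728833 for FKBP5 (hexamer beginning at base 1 of the transcript), chr1:145996530-145996829 for TXNIP (relaxed form beginning at base -175) and chr6:134177812-134178111 for SGK1 (hexamer beginning at base 6).
TSC22D3: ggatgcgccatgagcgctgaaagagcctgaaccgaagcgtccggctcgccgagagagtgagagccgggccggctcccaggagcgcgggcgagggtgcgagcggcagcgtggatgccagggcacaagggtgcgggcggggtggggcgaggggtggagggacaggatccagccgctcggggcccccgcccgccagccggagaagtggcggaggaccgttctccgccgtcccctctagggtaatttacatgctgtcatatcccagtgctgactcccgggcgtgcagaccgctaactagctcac
FKBP5: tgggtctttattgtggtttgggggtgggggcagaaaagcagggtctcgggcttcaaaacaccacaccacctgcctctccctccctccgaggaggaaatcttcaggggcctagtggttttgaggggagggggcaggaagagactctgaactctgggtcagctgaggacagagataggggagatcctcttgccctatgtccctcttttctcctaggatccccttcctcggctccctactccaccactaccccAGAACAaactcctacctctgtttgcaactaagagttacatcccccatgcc
TXNIP: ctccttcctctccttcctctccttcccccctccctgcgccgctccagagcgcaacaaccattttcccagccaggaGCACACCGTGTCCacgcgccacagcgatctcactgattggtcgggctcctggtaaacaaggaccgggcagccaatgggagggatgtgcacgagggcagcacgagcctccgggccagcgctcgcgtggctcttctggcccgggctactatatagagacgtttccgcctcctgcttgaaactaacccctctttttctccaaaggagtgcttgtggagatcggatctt
SGK1: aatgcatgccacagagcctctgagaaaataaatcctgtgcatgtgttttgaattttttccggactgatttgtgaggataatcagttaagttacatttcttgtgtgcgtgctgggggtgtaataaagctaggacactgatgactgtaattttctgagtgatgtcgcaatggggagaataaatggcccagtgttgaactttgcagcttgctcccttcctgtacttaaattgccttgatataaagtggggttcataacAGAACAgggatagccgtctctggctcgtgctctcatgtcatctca

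FKBP5, with the hexamer in only 1 of its windows, and TXNIP, with the relaxed form in only 1, rose in Pd cells. TSC22D3 also rose, with no match in its 4 windows. KLF9, called in PIM-Pd cells, had no match. A link between a match and a response was not tested. SGK1, with a hexamer in 1 of its 3 windows, had the negative difference of -0.59.

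Other genes of the pathway could be named only through the study's own list of changed genes, which was drawn from these arrays, so neither the share that passed nor its direction is independent evidence, and the counts are given as a description. Of 138 genes on 4 lists, 22 had a name. Among 12 of 59 other glucocorticoid-induced genes, 9 rose, 1 fell and 2 did not pass in Pd against control, with a median difference of 0.76. DDIT4, which restrains mTORC1, rose by 4.02 (adjusted p = 5.02e-11, limma), and the pro-apoptotic gene BMF rose by 1.90 (adjusted p = 1.26e-05). ZFP36L2, which promotes mRNA decay, rose by 1.36, the sorting receptor gene SORT1 by 1.04, the PI3-kinase inhibitor gene PIK3IP1 by 0.98 and the chemokine receptor gene CXCR4 by 0.77. The clock gene PER2, a partner of PER1, fell by 0.70 (adjusted p = 0.0261). It read 4.24, 4.27 and 3.78 in Pd cells, below the array medians.

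None of these 12 genes passed in PIM against control or in PIM-Pd against Pd, where 0% and 0.0791% of all rows were called. In PIM-Pd against control 9 rose and 2 fell, with a median difference of 0.90. DDIT4 rose by 3.96 and BMF by 1.72 there. PIK3IP1 rose by 1.49 there, beside 0.98 in Pd cells (PIM-Pd against Pd 0.51, adjusted p = 0.323, limma).

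Of the receptor's chaperones and steroid-handling genes, 3 of 17 were named. H6PD, which supplies the cofactor for cortisol regeneration, rose by 1.02 in Pd cells (adjusted p = 0.0242, limma), and HSPA4 and FKBP4 did not pass. H6PD read 4.27, 3.91 and 3.81 in control cells, below the array medians. FKBP4, the co-chaperone FKBP52 that exchanges with FKBP51 on the receptor, was singled out after its values were seen. It read 8.45, 8.95 and 9.13 in control cells, 8.40, 8.31 and 8.32 in Pd cells, and 7.56, 7.40 and 7.76 in PIM-Pd cells. It fell by 1.28 in PIM-Pd against control (adjusted p = 0.000603), where FKBP5 rose by 1.79. HSPA4, an HSP110 family chaperone, also fell there, by 0.52 (adjusted p = 0.0224). H6PD differed by 0.64 there and did not pass (adjusted p = 0.134, limma), at 0.80, 0.01 and 1.11 in experiments 1, 2 and 3.

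Of the coregulators, 3 of 22 were named, all through that list of changed genes. NCOA3, a steroid receptor coactivator, rose by 0.54 (adjusted p = 0.00983, limma), the arginine methyltransferase gene PRMT1 fell by 0.96 (adjusted p = 0.000471) and the corepressor gene TRIM28 fell by 0.51 (adjusted p = 0.0355). The same directions passed in PIM-Pd against control, with PRMT1 at -1.61. Among 4 of 40 genes that glucocorticoids repress in other cells, the chemokine genes CXCL10 and CCL3 fell in Pd cells, by 1.21 and 1.07 (adjusted p = 0.0177 and 0.0156), while the chemokine gene CCL4 rose by 1.57 (adjusted p = 0.0293). CCL5 differed by 0.34 and did not pass. CXCL10 read 3.83, 3.96 and 3.84 in Pd cells and CCL4 read 4.57, 4.11 and 4.22 in control cells, all below the array medians. In PIM-Pd against control 2 of the 4 rose and 1 fell: CCL4 rose by 1.94 (adjusted p = 0.0053, limma), CCL5 rose by 1.17 (adjusted p = 0.0148), CXCL10 passed as lower (adjusted p = 0.00298) and CCL3 differed by -0.55 without passing (adjusted p = 0.196).

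The rows with a name whose 12-array profile, centred on its own mean, came closest to that of TSC22D3 were FAR2, CYSLTR1, DKK1, TPBG and ATP2B4. Their root mean square differences from it were 0.32 to 0.48 log2 units, beside a spread of 1.45 in TSC22D3 itself, and they were also the 5 closest of all rows. For FKBP5 they were AASS, MEI1, GRB14, ATP2B4 and FAM26E, at 0.27 to 0.33 beside a spread of 1.01, again the 5 closest of all. For NR3C1 the nearest named rows were AUP1, SLC25A11, RAVER1, SNRPC and GFM1, at 0.14 to 0.16 beside a spread of 0.12 in NR3C1 itself. Even AUP1 stood only at rank 1539 among all rows, so these are not its closest profiles.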

How the data were processed

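Total RNA was hybridised to Clariom S human arrays. Per the labels and the study's methods, the authors normalised the arrays by RMA with oligo 1.44.0 in R 3.5.0 and a custom BrainArray definition, and deposited 1 log2 value per Ensembl gene, 17710 rows for 12 arrays. RMA makes array distributions nearly equal, so a global shift would not be seen. No values were changed here. The members and gene lists were chosen with earlier results of these data known. The members' names come from the rule that chose them, and other names from the study's own identifier list.

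Groups came from sample titles. All 12 arrays were fitted by group with limma 3.58.1 in R 4.3.3 (lmFit, eBayes), with Benjamini-Hochberg adjustment over all rows and calls at 0.05. The study used SAM, which was not run. An exact permutation test of 3 against 3 arrays cannot go below p = 0.1 and was not used. The share of all rows whose groups do not overlap was not counted, so overlap is given for single genes as a description. The fit was tested on simulated data. The number of arrays limits the precision.

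Sample titles number the replicates 1 to 3 and the study names independent experiments, but neither states a pairing. Arrays with the same number were taken as 1 experiment for the within-experiment differences. The main fit has no term for the replicate, so it leaves out any pairing. Deviations of same-numbered arrays from their group means correlated at -0.10 to 0.30 (median 0.10, 18 pairs), beside a median of -0.04 over 36 pairs of other numbers. The fit with the replicate block is given where it changed a call named in the text. Other alternatives were another moderation, only the groups compared, a filter on low rows, 2 scalings and leaving out each array. Besides all members, the text names up to 6 called genes per direction of each list in Pd against control, and the 5 nearest named rows of NR3C1, TSC22D3 and FKBP5.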

Additional observations from a re-analysis of the deposited data

Results flagged for a closer look

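For DUSP1 and TXNIP, the difference of PIM from control and that of PIM-Pd from Pd had opposite signs in every experiment. These genes were picked from the 10 members for those signs, in these same values. PIM cells were collected at 24 h, PIM-Pd cells at 10 h and Pd cells at 15 h, so agent and duration cannot be told apart. TXNIP was above control in PIM cells by 0.31, 0.31 and 0.17 and was lower in PIM-Pd than in Pd cells, at -0.61, -0.24 and -0.07. DUSP1 was above control in PIM cells by 0.03, 0.15 and 0.05 and was lower in PIM-Pd than in Pd cells, at -0.56, -0.17 and -0.30. The interaction was -0.57 for TXNIP (adjusted p = 0.967, limma) and -0.42 for DUSP1 (adjusted p = 0.917, limma), so neither difference passed.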

How the results depend on the processing

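The members were tested under 18 alternatives, which gave 1070 differences for 60 member comparisons. Of these, 1047 kept their side of the threshold, 20 lost a call, 3 gained one and 0 called differences changed sign, while 41 differences that were not called did. With the replicate block, 738 rows were higher and 443 lower in Pd against control, and of the members' calls only those of KLF9 and TXNIP in PIM-Pd against PIM changed. The filter, a highest group mean of at least 3.63, kept 13845 rows and all 10 members. In PIM-Pd against Pd, 14 rows were called in the fit of all arrays, 26 with trend and robust moderation, 1 with only the arrays of these groups and 8 after quantile normalization. In PIM-Pd against PIM, 1003 rows were called, and 455 with only the arrays of these groups. Leaving out 1 array at a time gave 497 to 1049 called rows in Pd against control (960 with all), with 522, 608, 520 and 497 without control array 1 or 3 or Pd array 1 or 3, 1096 to 1771 in PIM-Pd against control (1671), lowest without control array 3, 2 to 15 in PIM-Pd against Pd, 648 to 953 in PIM-Pd against PIM, lowest without PIM-Pd array 3, and 0 to 3 in the interaction (3). The counts in PIM-Pd against Pd and in the interaction moved by over 1.5 times without any single array other than PIM array 2 or PIM-Pd array 2. With 1 array left out, called members numbered 2 to 4 in PIM-Pd against control, with 2 left without control array 1 or PIM-Pd array 3, and 2 to 3 in Pd against control and in PIM-Pd against PIM. The fit on only the control and Pd arrays called 4 members, the fourth being SGK1, lower. Over all 18 alternatives, the rows called in Pd against control numbered 497 to 1328, beside 960 in the main fit, so a call gained there is not set apart from the rest. A fit on only the groups compared cannot give the interaction. The causes were not tested.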
